A study of Homo sapiens with 6 samples.

Results

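The members of the Eph receptor and ephrin group are 9 genes, the receptors EPHA1, EPHA2, EPHA4, EPHB2, EPHB3 and EPHB4 and the ligands EFNA1, EFNB1 and EFNB2. They were taken by symbol from tables of 21463 genes, and all 9 were found; another 13 Eph receptors and ephrins in the tables are described where the members are set against the rest of the family. Polyadenylated RNA was sequenced from 6 cultures of 3 human lung carcinoma lines with mutant EGFR. HCC827 and PC9, which carry the EGFR deletion labelled E19Del, were each sequenced as an untreated, drug-sensitive parental line and as a gefitinib-resistant subline (HCC827-GR and PC9-GR). H1975, labelled L858R/T790M, was sequenced as an untreated parental line and as an osimertinib-resistant subline (H1975-OR). Gefitinib is a reversible and osimertinib a covalent inhibitor of the EGFR kinase. The sublines came from stepwise selection over 90 days, and the labels give half-maximal inhibitory concentrations of 0.016 to 0.07 µM before and 4.288 to 12.485 µM after it. Whether a subline is 1 clone or a mixed population is not given in the sources used here, and no label says whether drug was present at harvest.

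Eph receptors are receptor tyrosine kinases whose ligands, the ephrins, are bound to the surface of neighbouring cells, so signalling needs cell contact. A-class ephrins are held by a lipid anchor and B-class ephrins span the membrane, and each class is bound mainly by the receptors of its own class, with EPHA4 binding both. Signals run forward into the receptor-bearing cell and, for B-class ephrins, also in reverse into the ligand-bearing cell. In epithelia they act on cell sorting, adhesion and boundary formation.

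The libraries held 21222102 to 29366085 exon reads. The 3 lines, with 1 library per state each, are the only replicates of the comparison of states, and a ratio within a line carries only a 95% counting interval (exact binomial), which covers no biological spread. Levels of 1 gene across libraries are given in CPM (exon reads divided by the TMM-scaled library size and multiplied by 1000000), and levels of different genes are compared in TPM, which corrects for exon length. The level that 3 reads correspond to, the limit set by a count of 0, was 0.0985 to 0.145 CPM. Of 6 epithelial markers, all were at 1 CPM or more in 5 libraries and 4 were in H1975-OR, where CDH1 rested on 4 reads and EPCAM on 14. Their summed level was 2764 to 13360 CPM in the parental and 1735 to 7571 CPM in the resistant libraries, against 161 to 3123 and 893 to 3961 CPM for 4 mesenchymal markers. Of these, 3 or 4 were at 1 CPM or more in each library. The sum was mostly VIM and FN1, and CDH2 rested on 1 read in H1975 and 8 in H1975-OR. Of 4 leukocyte markers 1 or 2 were at 1 CPM or more (sum 51.6 to 177 CPM, mostly CD68), while PTPRC rested on at most 10 reads in any library and CD3E on at most 4. Of 4 endothelial markers 0 to 2 were at 1 CPM or more, with a summed level of at most 20.2 CPM. That level was in PC9, where PECAM1 was at 14.4 CPM and CDH5 at 5.67 CPM. Of 4 fibroblast markers, 1 or 2 were at 1 CPM or more in each library, with summed levels of 14.7 to 126 CPM, nearly all COL1A1. Their part in the results was not tested.

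In the resistant libraries of HCC827 and H1975, transcripts of the receptors EPHA1 and EPHB3 were close to the limit of detection, while PC9-GR kept both. EPHA1 (ENSG00000146904, hg38 chromosome 7, 143390289 to 143408892, minus strand), the founding member of the A class, was at 19.3 CPM (530 reads) in HCC827 and 0.0375 CPM (1 read) in HCC827-GR. It was at 28.8 CPM in PC9 and 30.5 CPM in PC9-GR. In H1975 it was already low, at 0.552 CPM (13 reads), and H1975-OR held 1 read. The parental-to-resistant ratio was 515 in HCC827 (95% counting interval 92.1 to 20390) and 16.8 in H1975 (2.52 to 714), both from a resistant library of 1 read, and the resistant-to-parental ratio was 1.06 in PC9 (0.947 to 1.18). A bulk library cannot tell fewer expressing cells from less RNA per cell.

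EPHB3 (ENSG00000182580, hg38 chromosome 3, 184561784 to 184582409, plus strand), a B-class receptor known from epithelial compartment boundaries, was also highest in the PC9 libraries. It was at 3.83 CPM (105 reads) in HCC827 and at 0.0750 CPM (2 reads) in HCC827-GR, at 8.39 and 12.0 CPM in PC9 and PC9-GR, and at 0.891 CPM (21 reads) and 0.197 CPM (6 reads) in H1975 and H1975-OR. The parental-to-resistant ratio was 51.0 in HCC827 (95% counting interval 13.8 to 427) and 4.52 in H1975 (1.77 to 13.7). In PC9 the resistant library was 1.43 times as high (1.18 to 1.74). EPCAM, an epithelial adhesion gene, stood at 433 and 10.6 CPM in HCC827 and HCC827-GR, 745 and 733 CPM in PC9 and PC9-GR, and 26.6 and 0.460 CPM in H1975 and H1975-OR. The libraries in which EPHA1 and EPHB3 were low are thus those in which EPCAM was low. Of the other epithelial markers, CDH1, KRT8 and KRT18 were also lower in these libraries than in the rest, while KRT7 and KRT19 were not. KRT7 was at 2745 CPM in HCC827-GR and 2142 CPM in PC9, and KRT19 at 744 CPM in HCC827-GR and 593 CPM in PC9-GR. The part of the epithelial markers in the result was not tested.

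The promoter windows of this pair are printed beside those of EPHB2 and EFNB2, which stood higher in HCC827-GR than in HCC827. The windows are the 250 bases before the RefSeq start (GRCh38.p14), on the gene's strand, and capitals mark the E-box CAGGTG, or CACCTG where it lies on the other strand, a motif that EMT repressors such as ZEB1 and SNAI1 are known to bind.
EPHA1, chr7:143408857-143409106, minus strand: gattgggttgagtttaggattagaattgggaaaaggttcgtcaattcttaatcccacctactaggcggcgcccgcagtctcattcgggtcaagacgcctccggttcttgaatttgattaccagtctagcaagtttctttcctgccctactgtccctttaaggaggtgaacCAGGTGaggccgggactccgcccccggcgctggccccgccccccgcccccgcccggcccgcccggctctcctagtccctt
EPHB3, chr3:184561535-184561784, plus strand: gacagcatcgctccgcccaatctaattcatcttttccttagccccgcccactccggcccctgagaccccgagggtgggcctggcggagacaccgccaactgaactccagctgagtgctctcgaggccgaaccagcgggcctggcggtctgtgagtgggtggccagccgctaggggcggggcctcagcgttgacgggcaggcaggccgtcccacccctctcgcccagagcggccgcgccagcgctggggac
EPHB2, chr1:22710588-22710837, plus strand: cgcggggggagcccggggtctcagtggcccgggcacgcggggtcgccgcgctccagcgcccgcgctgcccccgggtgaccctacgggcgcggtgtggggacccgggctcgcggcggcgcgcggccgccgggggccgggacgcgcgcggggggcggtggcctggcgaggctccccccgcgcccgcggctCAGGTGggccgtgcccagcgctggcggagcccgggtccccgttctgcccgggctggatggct
EFNB2, chr13:106535663-106535912, minus strand: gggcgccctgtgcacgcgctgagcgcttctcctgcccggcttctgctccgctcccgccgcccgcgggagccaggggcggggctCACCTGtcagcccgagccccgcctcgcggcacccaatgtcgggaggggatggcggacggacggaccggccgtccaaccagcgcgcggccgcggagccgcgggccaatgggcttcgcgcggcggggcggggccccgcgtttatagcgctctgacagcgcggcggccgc
EPHA1 held 1 match, 80 bases before its start, and EPHB3 none. EPHB2 held 1 match at 62 bases and EFNB2 1 at 167 bases, while EPHA4, the member with the highest ratio in HCC827, held none in either of its windows. All 9 members were in the RefSeq table, and 3 of them held this E-box in any of their windows, against 17.5% of 35093 promoter windows. The members were counted by gene and the background by window, so the shares are in unlike units. The AP-1 motif TGANTCA was in 0 member windows (6.57% of all), and the TEAD motif GGAATG was in 1, that of EPHA2 (11.9% of all). These motifs were looked for on both strands, do not overlap each other in these windows and were chosen with the expression values known. A match is a description of the letters and not evidence of binding.

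**Figure D1:**
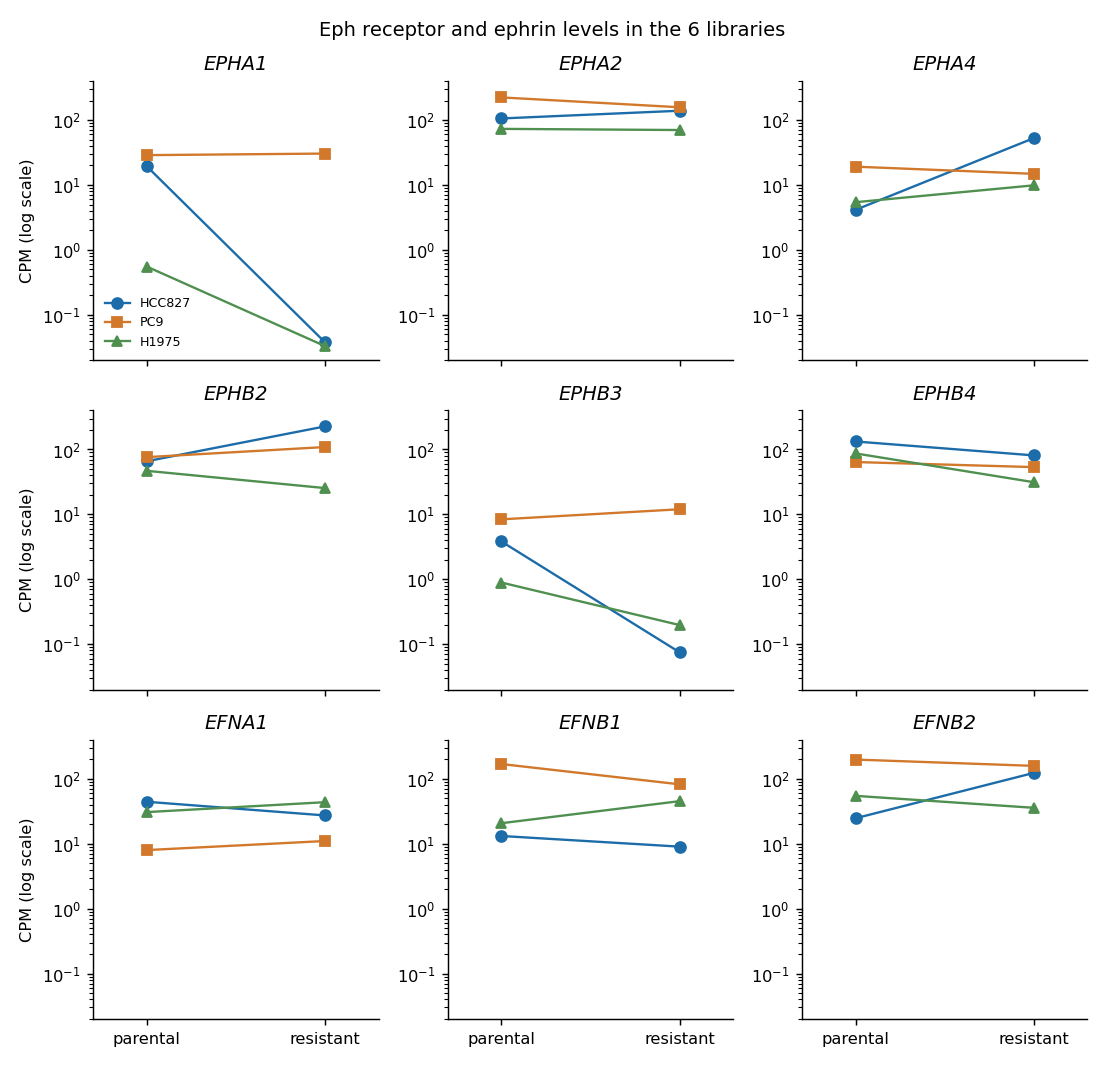
Level of each member (CPM, log scale) in the parental and resistant library of HCC827 (circles), PC9 (squares) and H1975 (triangles); each point is 1 library and lines join the pair of a line. EPHA1 and EPHB3 span the widest ranges, with resistant HCC827 points that rest on 1 and 2 reads, and EPHB4 is the only member whose 3 lines all slope down.

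EPHA2 (ENSG00000142627, hg38 chromosome 1, 16124337 to 16156087), a receptor widely expressed in carcinoma cells, was the most even member across the libraries. It was at 106 CPM in HCC827 and 139 in HCC827-GR, at 224 in PC9 and 158 in PC9-GR, and at 73.3 in H1975 and 70.3 in H1975-OR. The highest library was 3.18 times the lowest, and the lines kept their order in the parental libraries (PC9, HCC827, H1975) and in the resistant ones. The resistant-to-parental ratio was 1.32 in HCC827 (95% counting interval 1.25 to 1.38), 0.705 in PC9 (0.675 to 0.736) and 0.960 in H1975 (0.901 to 1.02). The parental mean was 134 ± 79.2 CPM and the resistant mean 122 ± 46.1 CPM (SD, n = 3 lines). The mean log2 ratio within lines, with 1 CPM added, was −0.056 ± 0.447 (SD, n = 3 lines), smaller than its spread between lines.

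EPHA4 (ENSG00000116106, hg38 chromosome 2, 221418027 to 221574202), which binds ephrins of both classes, stood at 4.16 CPM (114 reads) in HCC827 and 52.9 CPM (1411 reads) in HCC827-GR. This ratio of 12.7 (95% counting interval 10.5 to 15.6) took it from the lowest of the 6 libraries to the highest. It was at 19.2 and 14.9 CPM in PC9 and PC9-GR and at 5.43 and 9.89 CPM in H1975 and H1975-OR, ratios of 0.776 (0.670 to 0.897) and 1.82 (1.48 to 2.26). The parental mean was 9.58 ± 8.31 CPM and the resistant mean 25.9 ± 23.5 CPM (SD, n = 3 lines), and the groups overlapped.

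Among the B-class receptors, EPHB2 and EPHB4 differed in opposite directions in both gefitinib-selected lines. EPHB2 (ENSG00000133216, hg38 chromosome 1, 22710839 to 22921500) was at 66.0 CPM in HCC827 and 227 in HCC827-GR, at 76.3 in PC9 and 109 in PC9-GR, and at 46.9 in H1975 and 25.4 in H1975-OR. The resistant-to-parental ratio was 3.44 in HCC827 (95% counting interval 3.27 to 3.63), 1.43 in PC9 (1.34 to 1.52) and 0.542 in H1975 (0.494 to 0.595). The 3 parental libraries lay close together, at 63.1 ± 14.9 CPM, and the resistant ones at 121 ± 101 CPM (SD, n = 3 lines).

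EPHB4 (ENSG00000196411, hg38 chromosome 7, 100802565 to 100827521), the receptor best known as the partner of ephrin-B2 in vessels, was the only member lower after selection in each of the 3 lines. Of all 13541 genes tested, 13.5% were also lower in all 3 resistant libraries. It was at 133 CPM in HCC827 and 81.1 in HCC827-GR, at 64.1 in PC9 and 53.5 in PC9-GR, and at 86.9 in H1975 and 31.3 in H1975-OR. Resistant-to-parental ratios were 0.611 (95% counting interval 0.579 to 0.644), 0.835 (0.773 to 0.903) and 0.360 (0.333 to 0.389). The parental mean was 94.6 ± 35.0 CPM and the resistant mean 55.3 ± 24.9 CPM (SD, n = 3 lines), and the groups overlapped, since HCC827-GR lay above parental PC9. Of the genes with at least 10 CPM that start within 1 Mb of EPHB4, the median log2 ratio was −0.59 in HCC827 (34 genes), 0.04 in PC9 (28 genes) and −0.35 in H1975 (30 genes). The median neighbour was thus lower in HCC827 and H1975 and near 0 in PC9, and the part of the neighbourhood in the EPHB4 result was not tested.

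EFNA1 (ENSG00000169242, hg38 chromosome 1, 155127460 to 155134857), an A-class ephrin that binds EPHA2, was lowest in the PC9 libraries. It was at 44.4 CPM in HCC827 and 27.3 in HCC827-GR, at 7.998 in PC9 and 11.0 in PC9-GR, and at 30.8 in H1975 and 43.7 in H1975-OR. The ratio was 0.616 in HCC827 (95% counting interval 0.561 to 0.675), 1.38 in PC9 (1.13 to 1.69) and 1.42 in H1975 (1.298 to 1.558). The state means were 27.7 ± 18.4 and 27.4 ± 16.4 CPM (SD, n = 3 lines). With 1 CPM added, the mean log2 ratio within lines was 0.078 ± 0.657 (SD, n = 3 lines), smaller than its spread between lines.

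The B-class ephrins differed among lines and did not vary together. EFNB1 (ENSG00000090776, hg38 chromosome X, 68828997 to 68842147) was at 13.2 CPM in HCC827 and 9.04 in HCC827-GR, at 170 in PC9 and 82.5 in PC9-GR, and at 20.8 in H1975 and 45.4 in H1975-OR. The ratio was 0.685 in HCC827 (95% counting interval 0.579 to 0.808), 0.487 in PC9 (0.460 to 0.514) and 2.19 in H1975 (1.97 to 2.43). EFNB1 was thus lower in both gefitinib-selected sublines and higher in the osimertinib-selected one, the reverse of EPHB2.

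EFNB2 (ENSG00000125266, hg38 chromosome 13, 106489731 to 106535662), the ligand of EPHB4, was at 24.8 CPM in HCC827 and 124 in HCC827-GR, at 198 in PC9 and 159 in PC9-GR, and at 54.8 in H1975 and 35.8 in H1975-OR. The ratio was 5.00 in HCC827 (95% counting interval 4.60 to 5.44), 0.800 in PC9 (0.765 to 0.836) and 0.654 in H1975 (0.603 to 0.710). HCC827 was the lowest of the 6 libraries, and HCC827-GR was next in order below the PC9 libraries. State means were 67.8 ± 88.1 and 45.6 ± 36.7 CPM for EFNB1 and 92.7 ± 92.8 and 106 ± 63.3 CPM for EFNB2, parental before resistant (SD, n = 3 lines).

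Counted at 2-fold or more, on log2(CPM + 1) and among genes with at least 10 CPM in 1 library of the line, HCC827 held 4 of 8 members (EPHA4, EPHB2 and EFNB2 higher, EPHA1 lower), against 18.1% of all genes at that level (10.5% higher, 7.65% lower). PC9 held 1 of 9, EFNB1, which was lower, against 4.14% of all genes (2.42% higher, 1.72% lower). H1975 held 2 of 6, EFNB1 higher and EPHB4 lower, against 4.98% (1.76% higher, 3.22% lower). With 5 CPM added in place of 1, the count was 0 in PC9 and 1 in H1975. On the same scale the median log2 ratio of the 9 members was −0.50 in HCC827, −0.26 in PC9 and −0.59 in H1975, against −0.02, 0.00 and 0.02 over all 13541 genes tested. Over the whole family, which holds further genes with few or no reads, it was −0.083, −0.005 and −0.029 in that order. The H1975 median of the members was the value of EPHA1, from 13 reads and 1 read. With 5 CPM added that EPHA1 value was −0.14, so the median depends on the CPM added.

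**Figure D2:**
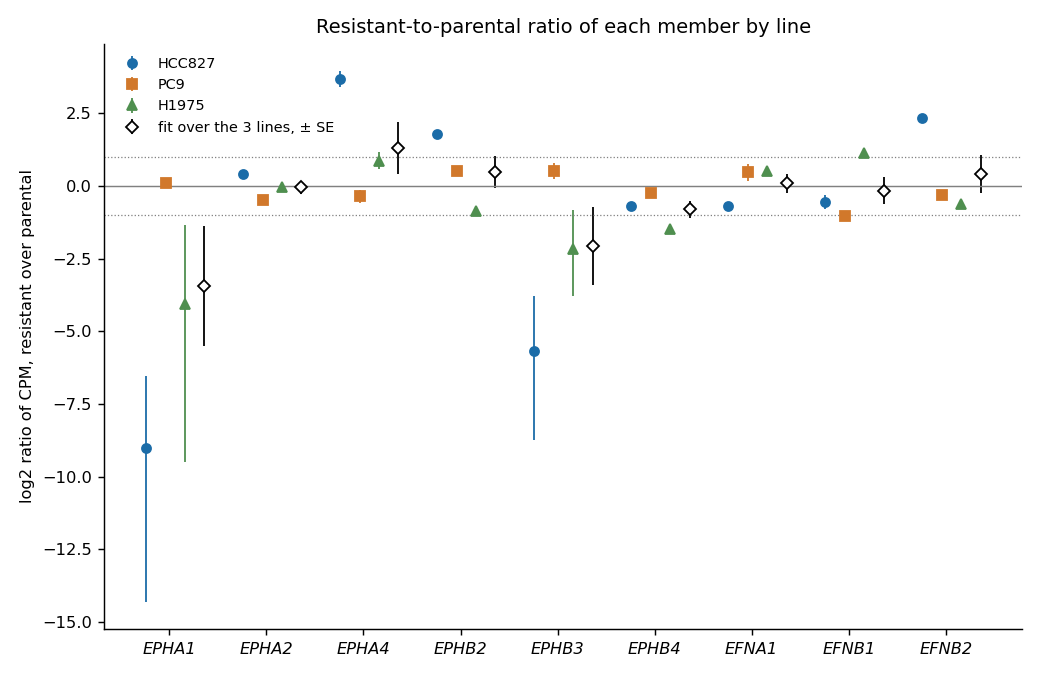
Resistant-to-parental log2 ratio of CPM for each member in HCC827 (circles), PC9 (squares) and H1975 (triangles) with 95% counting intervals, and the edgeR estimate over the 3 lines with its standard error (open diamonds). Dotted lines mark 2-fold; the lines disagree in sign for every member except EPHB4, and the widest intervals belong to EPHA1 and EPHB3, whose resistant libraries held 1 to 6 reads outside PC9.

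The comparison of resistant with parental libraries over the lines asked whether any member differed with resistance whatever the drug. In the edgeR quasi-likelihood test with the line as a block, 0 of 9 members passed an adjusted p of 0.05, as did 0 of 13541 genes (0.0%; 502, or 3.71%, had an unadjusted p under 0.05). DESeq2 called 58 genes (0.428%), with 0 members among them, and limma-voom called 0. EPHB4 had the smallest p of the members, with a log2 fold change of −0.81 ± 0.28 (SE, n = 3 lines, edgeR unadjusted p = 0.0356, adjusted p = 0.903). It was lower in 3 of 3 lines, as were 13.5% of the genes tested; its adjusted p ranged from 0.509 with DESeq2 to 1.00 over the alternatives that kept all lines, and the estimate was −0.47 without H1975.

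The fitted value was −3.45 ± 2.06 for EPHA1 and −2.07 ± 1.34 for EPHB3 (SE, n = 3 lines), and without HCC827 it was −0.783 and −0.565. Without PC9, the line that kept both, it was −7.10 for EPHA1 (edgeR adjusted p = 0.958) and −3.75 for EPHB3. It was 1.31 ± 0.89 for EPHA4, 0.48 ± 0.55 for EPHB2 and 0.40 ± 0.665 for EFNB2. Without HCC827 these 3 values were 0.235, −0.185 and −0.472, so the positive sign for EPHB2 and EFNB2 rested on that line. The remaining members, like EPHB2 and EFNB2, lay within 1 standard error of 0, with 0.09 ± 0.32 for EFNA1, −0.06 ± 0.23 for EPHA2 and −0.17 ± 0.47 for EFNB1. Parental and resistant libraries overlapped for all 9 members, and did not overlap for 2.22% of the genes tested.

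The change in the gefitinib-selected lines was also set against that in osimertinib-selected H1975, in an edgeR fit that leaves 1 residual degree of freedom. With 1 line on the osimertinib side, drug, EGFR mutation and line cannot be told apart. The H1975 pair is fitted exactly, so the residual spread comes only from how the changes in HCC827 and PC9 differ. The standard errors (±) and p-values of this fit thus hold no spread between osimertinib-selected lines. No member passed (0 of 9, against 0.0% of 13541 genes; 3.21% had an unadjusted p under 0.05), and DESeq2 called 0 members among 77 genes (0.569%). EFNB1 had a log2 difference of −1.93 ± 0.47, with a mean log2 ratio of −0.77 in HCC827 and PC9 and 1.09 in H1975 (edgeR unadjusted p = 0.0128, adjusted p = 1.00). EPHB2 had 2.03 ± 0.68, with 1.14 against −0.86 (edgeR unadjusted p = 0.0361, adjusted p = 1.00).

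Compared per length, 1 or 2 genes supplied most transcript of each receptor class. EPHA2 made up 73.8% to 92.8% of the summed TPM of the 9 A-class receptors in every library. EPHA1 added 14.4 TPM in HCC827 and 21.8 and 22.65 TPM in PC9 and PC9-GR, and EPHA4 was second, at 18.1 TPM, in HCC827-GR, where EPHA1 was at 0.0264 TPM. The A-class receptor sum was 86.1 TPM in HCC827 and 103 in HCC827-GR, 180 in PC9 and 135 in PC9-GR, and 64.5 in H1975 and 58.5 in H1975-OR.

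The B-class receptor sum was nearly the same in the HCC827 pair although its make-up differed. It was 92.4 TPM in HCC827 and 89.5 in HCC827-GR, while EPHB4 went from 82.7% to 49.3% of it and EPHB2 from 14.8% to 49.6%. In PC9 and PC9-GR the sum was 79.7 and 76.6 TPM, and EPHB6, which is not a member, made up 26.6% and 21.25% of it. EPHB2 made up 20.1% and 29.4% there, and the EPHB2-to-EPHB4 ratio of TPM was 0.428 and 0.733. In H1975 and H1975-OR the sum was 81.1 and 28.4 TPM, with EPHB4 at 64.7 and 21.8 TPM. The ratio was higher in the resistant library of each line, from 0.179 to 1.01 in HCC827 and from 0.194 to 0.292 in H1975.

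The ligand classes separated PC9 from the other lines. The B-class ephrin sum was 231 TPM in PC9 and 142 in PC9-GR, against 28.1 and 75.9 TPM in HCC827 and HCC827-GR and 59.9 and 72.0 TPM in H1975 and H1975-OR. The A-class ephrin sum was 38.7 and 48.7 TPM in PC9 and PC9-GR, against 85.2 to 113 TPM in the other 4 libraries. Within the B class the leading ephrin changed place in all 3 pairs or widened its lead: the EFNB2-to-EFNB1 ratio of TPM was 1.24 and 9.07 in HCC827 and HCC827-GR, 0.775 and 1.27 in PC9 and PC9-GR, and 1.75 and 0.522 in H1975 and H1975-OR. Summed receptors over summed ephrins stood between 0.929 and 1.27 in 5 libraries and at 0.494 in H1975-OR. No test was run on these sums, which hold chosen genes.

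**Figure D3:**
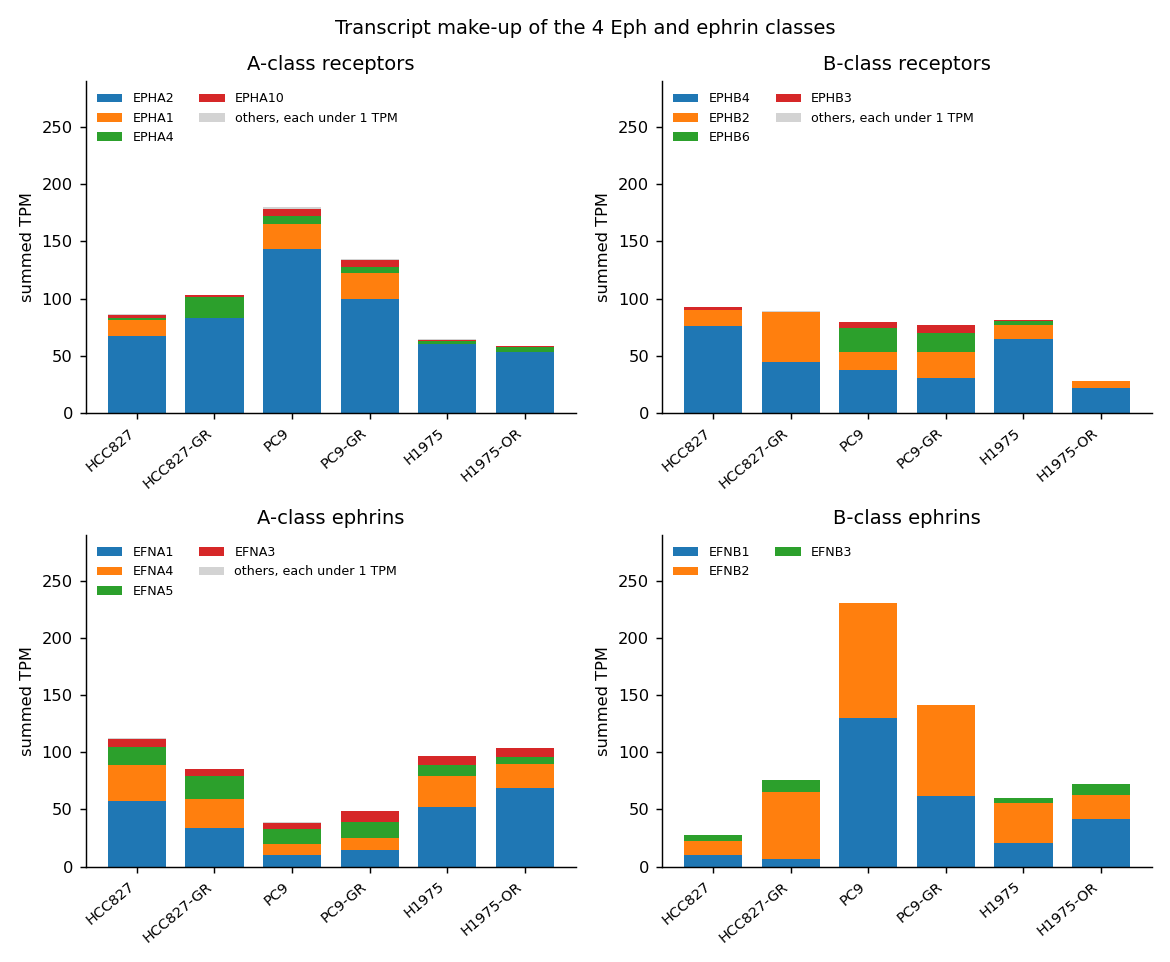
Summed TPM of the A-class receptors, B-class receptors, A-class ephrins and B-class ephrins in each library, split by gene (bars start at 0; genes under 1 TPM in every library are pooled). EPHA2 fills most of each A-class receptor bar, EPHB2 and EPHB4 share the HCC827-GR bar about evenly, and the B-class ephrin bars of PC9 and PC9-GR are the tallest of their panel.

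The members carried 79.9% to 89.2% of the TPM of the 22 family genes, and of the 13 others 8 passed the low-count filter. EPHB6, a receptor without kinase activity, was highest in the PC9 libraries, as EPHA1 and EPHB3 were, with 0 reads in HCC827 and 2 in HCC827-GR, 33.4 and 26.2 CPM in PC9 and PC9-GR, and 3.95 CPM (93 reads) and 0.197 CPM (6 reads) in H1975 and H1975-OR. EPHA10, also kinase-inactive, was at 8.82 and 5.10 CPM in HCC827 and HCC827-GR, 17.6 and 19.04 CPM in PC9 and PC9-GR, and 2.84 and 0.493 CPM in H1975 and H1975-OR. EFNB3, a B-class ephrin, was the 1 gene of the 8 that was higher in all 3 resistant libraries (14.3% of the genes tested were), at 7.398 and 14.8 CPM in the HCC827 pair, at 1 and 6 reads in the PC9 pair and at 4.16 and 9.59 CPM in the H1975 pair. Its fitted log2 fold change was 1.29 ± 0.41 (SE, n = 3 lines, edgeR unadjusted p = 0.0277, adjusted p = 0.903).

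Among A-class ephrins that are not members, EFNA5 was at 33.3 and 44.8 CPM in HCC827 and HCC827-GR, 26.5 and 28.7 CPM in PC9 and PC9-GR, and 16.3 and 9.98 CPM in H1975 and H1975-OR. EFNA4 was at 15.6 and 13.8, 4.75 and 5.54, and 10.6 and 8.93 CPM in the same pairs, but only 35.3% to 46.2% of its reads mapped uniquely. Of the EFNA3 reads 59.65% to 75.5% were unique, and EFNA3 made up 14.8% and 19.9% of the A-class ephrin sum in PC9 and PC9-GR. The levels of EFNA4 and EFNA3 and the A-class ephrin sum are therefore uncertain. Of the members, EPHB4 had 97.0% to 99.7% unique reads and the other 8 had no read that mapped elsewhere.

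Of 45 other genes that act with Eph receptors and ephrins (proteases, adaptors, effectors, phosphatases and kinases), 43 were tested and 0 passed in edgeR. In all 3 resistant libraries 9 were higher and 6 lower, against 14.3% and 13.5% of all genes tested. The Src-family kinase FYN, which is recruited by activated Eph receptors, had the largest smallest ratio of the set. It was at 18.5 and 72.1 CPM in HCC827 and HCC827-GR, 44.9 and 82.6 CPM in PC9 and PC9-GR, and 8.70 and 26.8 CPM in H1975 and H1975-OR. Its fitted log2 fold change was 1.49 ± 0.27 (SE, n = 3 lines, edgeR unadjusted p = 0.00324, adjusted p = 0.903); DESeq2 called it (adjusted p = 0.00530), the only gene of the list that it called.

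Next by the same rule came TIAM1, a Rac exchange factor bound by Eph receptors and ephrin-B, with a log2 ratio of −0.73 for HCC827, −0.53 for PC9 and −0.61 for H1975. RASA1, the Ras GTPase-activating protein that docks on EPHB receptors, had ratios of −1.48, −0.40 and −0.66 in that order, although only 70.6% of its reads were unique, and ACP1, the low-molecular-weight phosphatase that acts on Eph receptors, had −0.96, −0.27 and −0.45. The receptor phosphatase PTPRF had 1.04, 0.36 and 0.25. For these 4 genes the edgeR adjusted p was 0.903. Of the 4 proteases listed, MMP14, which cleaves EPHA2, was at 0.765 and 1.05 CPM in the HCC827 pair, 25.3 and 40.4 CPM in the PC9 pair and 178 and 309 CPM in the H1975 pair. ADAM10, which cleaves A-class ephrins, had log2 ratios of 0.44, −0.46 and 0.04.

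The likeness of 2 genes was measured as the root mean square difference of their centred log2(CPM + 1) levels over the 6 libraries, which share lines and so are not independent. Over 11480 candidate genes, EPHA1 was closest to TMC6 (0.13) and OVOL1 (0.14), the latter an epithelial transcription factor that stood at 15.8 CPM in HCC827, 0 reads in HCC827-GR, 27.1 and 26.3 CPM in PC9 and PC9-GR, and 0.255 and 0.0985 CPM in H1975 and H1975-OR. EPHB3 was close to RNF223 (0.20) and EFNA1 to TEP1 (0.15), which stood at 44.2 and 30.4, 10.03 and 13.3, and 29.4 and 41.5 CPM in the HCC827, PC9 and H1975 pairs.

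EFNB2 was closest to HBEGF (0.30), an EGFR ligand, and PLK2 (0.30), EPHA4 to SUGCT (0.23) and CACHD1 (0.29), EPHB4 to ZNF518B (0.22) and SMIM14 (0.22), and EFNB1 to KCNJ12 (0.22) and SESTD1 (0.27). EPHB2 was closest to SPSB1 (0.17). TMEM56, next to EPHB2 (0.19), and AC105052.3, close to EPHA2 (0.12), had 6.65% and 0.115% uniquely mapping reads and are uncertain. Between members the closest pair was EPHA2 and EFNB2 (0.71), and EPHA1 and EPHB3 differed by 0.96. These pairs were taken from 9 genes, and so are not comparable with the closest of 11480.

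Intron reads gave another readout of the same genes where both libraries of a line held at least 50 of them, which 5 members did in at least 1 line. EPHA2 had 361 intron reads in HCC827 and 210 in HCC827-GR, a log2 ratio of −0.74 (95% counting interval −0.99 to −0.49), while its exon reads had 0.40. The difference of −1.14 was below the 5th percentile of 6655 genes measured in that line (−0.95). EPHB2 in HCC827 was higher in introns too, with 119 and 234 intron reads and a log2 ratio of 1.02 (0.69 to 1.35) against 1.78 in exons.

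In PC9 intron reads were lower for most genes, with a median log2 difference from exons of −0.35 over 6453 genes, and all 4 members measured there lay below that median, with differences of −1.05 for EFNB2, −0.78 for EPHA4, −0.73 for EPHB2 and −0.70 for EPHA2. The EFNB2 difference alone lay below the 5th percentile (−0.98). In H1975 EPHB2 had 68 and 89 intron reads, a log2 ratio of 0.02 (95% counting interval −0.45 to 0.50), against −0.88 in exons. The difference of 0.90 was above the 95th percentile of 8393 genes measured in that line (0.60). EPHA2 in H1975 had 0.46 in introns and −0.06 in exons, a difference of 0.52, the opposite sign to that in HCC827 and PC9. EFNB2 in H1975 had −0.91 in introns and −0.61 in exons. EFNA1 had like ratios in both, with −0.67 in introns and −0.70 in exons in HCC827 and 0.36 and 0.51 in H1975. An antisense transcript is annotated over the start of EPHA1 and another over that of EPHA2, and others over parts of EPHA4, EPHB2 and EFNB2. EPHB2, EPHB4 and EFNB2 also overlap noncoding transcripts on their own strand. The protein-coding genes ZYX and SLC12A9 overlap an end of EPHA1 and of EPHB4 on the opposite strand. It is not given in the sources used here whether the counting used strand. Intron reads, and exon reads at such overlaps, may therefore hold reads of overlapping genes, which was not tested.

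**Figure D4:**
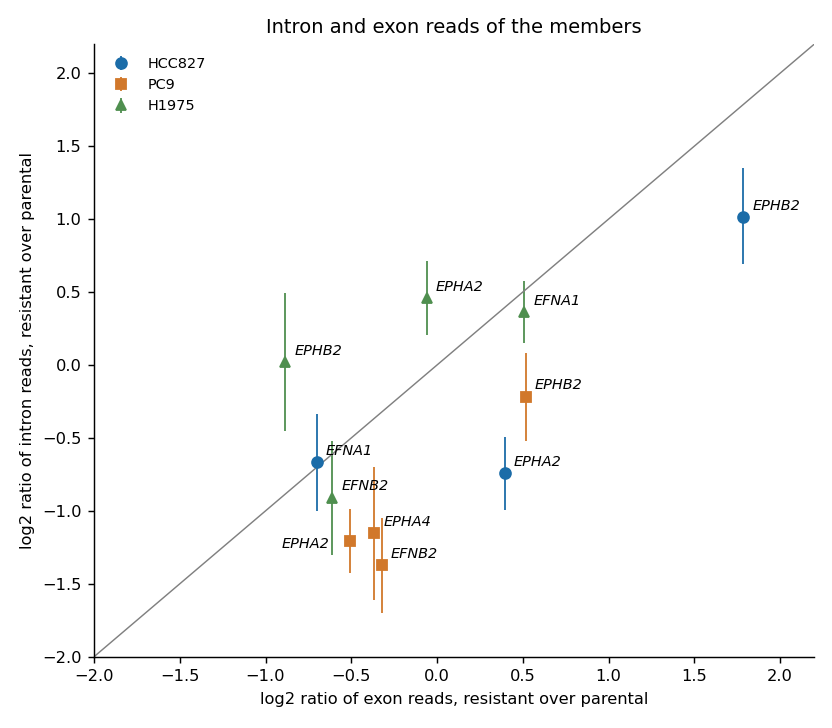
Log2 ratio of intron reads against log2 ratio of exon reads (resistant over parental, TMM-scaled) for members with at least 50 intron reads in both libraries of HCC827 (circles), PC9 (squares) or H1975 (triangles), with 95% counting intervals of the intron ratio. The line marks equal ratios; EFNA1 lies near it, EPHA2 in HCC827 lies below it with ratios of opposite sign, and EPHB2 in H1975 lies above it.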

How the data were processed

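Values are from 6 deposited tables, 1 per library. Per the file headers the authors gave whole-number read counts per gene (total exon, uniquely mapping exon, exon-exon and intron reads, not normalized) and TPM; the deposited TPM equal the exon reads divided by exon length and rescaled to a constant sum, within 5.0e-07. A series table of the same TPM, rounded, was not used further. Trimmomatic, Bowtie2 and hg38 appear, without roles, per the submitters' processing notes. The counting tool, strand setting and annotation release: not given in the sources used here.

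Libraries held 21222102 to 29366085 exon reads. CPM used TMM factors over the 13541 genes that passed filterByExpr (at least 10 reads, total of at least 15). The test was edgeR 4.0.16 (quasi-likelihood, R 4.3.3) on total exon reads with the cell line as a block (2 residual degrees of freedom), two-sided, Benjamini-Hochberg adjusted over all genes, threshold 0.05, with SE from the F statistic. It was tried on simulated counts with a lower dispersion than these data (0.05 against 0.149) and the same change in all lines. That trial therefore does not show its power here. Alternatives were DESeq2 1.42.0, limma-voom (limma 3.58.1), other scaling, filters, uniquely mapping reads, no block and each line left out. The lines pair the libraries by origin, and deviations from the group means correlated at 0.606 (HCC827), 0.841 (PC9) and 0.809 (H1975) within lines. Each state of a line has 1 library.

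Within a line, ratios in CPM had nothing added unless stated, and counts at 2-fold used 1 CPM added. Named genes were the 9 members, other family genes that reached 10 CPM, the 5 further genes of the pathway list of 58 with the largest smallest ratio over the lines in 1 direction among those with 10 CPM in 3 or more libraries, the 2 genes closest to each member (some are not reported here), and EGFR and EPCAM as line checks (EGFR stood at 2383 and 145, 947 and 856, and 389 and 224 CPM in the HCC827, PC9 and H1975 pairs). MMP14, ADAM10 and EFNA3 were named outside this rule, after their values were seen. The members and lists were chosen with earlier results of these data known.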

Additional observations from a re-analysis of the deposited data

Results flagged for a closer look

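Each of 2 members moved one way in both gefitinib-selected lines and the other way in H1975, with an unadjusted p under 0.05 for the difference. The residual spread in that fit came only from HCC827 and PC9, with none from the H1975 side. For EPHB2 the gefitinib change minus the H1975 change was 2.03 on the log2 scale (higher in 2 of 2 gefitinib-selected lines, lower in H1975). For EFNB1 it was −1.93 (lower in 2 of 2, higher in H1975). Both had an adjusted p of 1.00 in edgeR, so neither passed, and 434 of 13541 genes had an unadjusted p under 0.05.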

How the results depend on the processing

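No member was called under any alternative to the comparison of states or to that of the drugs. DESeq2 called 58 genes and 1 gene of the pathway list (FYN), where edgeR called 0. With no replicate block the fitted log2 value of EFNA1 was −0.018 in place of 0.09, and the block changed no call. Leaving out 1 line at a time, values ranged from −0.29 to 0.16 for EPHA2, −0.185 to 1.16 for EPHB2, −0.11 to 0.48 for EFNA1, −0.78 to 0.285 for EFNB1 and −0.47 to 1.01 for EFNB2, crossing 0 in each, and from −7.10 to −0.78 for EPHA1; the cause was not tested. In the drug comparison EPHA2 was at −0.001 with no filter, and EPHB3 at −0.12 with DESeq2. Members at 2-fold or more numbered 1 in H1975 with TPM or with 5 CPM added, 4 at 1.5-fold, and 0 in PC9 with 5 CPM added. Of 162 within-line ratios under another setting, 10 moved from the main value by more than the distance from the middle to the end of the log2 counting interval. Ratios of 2-fold or more were also checked for sign, and 0 reversed. The interval of EPHA1 in HCC827 was so wide that its value of −2.27 with 5 CPM added, against −4.29, was not counted as moved. Without TMM factors, the all-gene median in HCC827 went from −0.019 to −0.104 (log2). Over the settings that kept all lines, EPHA1 ranged from −4.06 to −0.67 and EPHB3 from −2.24 to −0.10. Depth limits EPHA1 and EPHB3 in HCC827-GR and in the H1975 pair, which held 1 to 21 reads of them.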

Other observations

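Genes with at least 10 CPM that start within 1 Mb of a member were also read for each line. Around EPHA1 the median log2 ratio was −0.48 in HCC827 (7 genes), −0.09 in PC9 (9 genes) and −0.44 in H1975 (6 genes), against −4.29, 0.08 and −0.59 for EPHA1 itself on the same log2(CPM + 1) scale. Around EPHB3 it was −0.25, −0.08 and 0.03 (20, 19 and 20 genes), against −2.17, 0.47 and −0.66 for EPHB3. Around EPHB2 it was 0.09, 0.04 and 0.26 (11, 12 and 11 genes), against 1.77, 0.51 and −0.86, so in H1975 EPHB2 and the median of its neighbours had opposite signs. Around EFNA1, in a gene-dense region, it was −0.11, 0.03 and 0.25 (43, 40 and 41 genes), against −0.68, 0.42 and 0.49. Around EPHA2 it was 0.43, −0.04 and 0.22 (16, 18 and 15 genes), against 0.39, −0.50 and −0.06, so the values were close in HCC827. Around EFNB2 it was 1.01, −0.14 and 0.22, but from 2, 1 and 1 genes, against 2.28, −0.32 and −0.60. Around EFNB1 it was 0.15, 0.20 and −0.03, from 4, 2 and 3 genes, against −0.50, −1.03 and 1.09, opposite in sign in each line. No neighbour of EPHA4 reached 10 CPM, and the values around EPHB4 are given beside its levels.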
